A study of Rattus norvegicus with 4 samples.

Results

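The cadherins and protocadherins are transmembrane adhesion receptors that carry calcium-binding cadherin repeats outside the cell. The members were taken by symbol, as the rat genes whose NCBI names follow the Cdh, Pcdh, Fat, Dchs or Celsr series. Of 83 such genes in the RefSeq table, 36 had at least 1 listed m6A peak in either group, among 8729 genes with a peak. A peak is a stretch of transcript in which the immunoprecipitated RNA was called as enriched for N6-methyladenosine.

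m6A was profiled in primary cardiac fibroblasts (CFs) from the hearts of wild-type Sprague-Dawley rats no more than 3 days old. The Vector group received the empty plasmid and the FTO group received a plasmid that overexpressed FTO, an m6A demethylase. Each group had 1 m6A-IP and 1 input library and gave 1 peak list, so that no difference in this text has a replicate check and p-values were not computed. Transfection reaches a part of the cells, and how many hearts were pooled was not given in the sources used here. The Vector list held 21249 peaks in 7894 genes and the FTO list held 17796 peaks in 7297 genes. Where a peak had no gene ID its transcript was counted as the gene, which holds for 195 of the 8729. The sequencing depth of the libraries is unknown. The Fto gene itself had 3 peaks with Vector and 9 with FTO, a number of peaks that is not an expression level.

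Classical cadherins join neighbouring cells at adherens junctions, where their cytoplasmic tails bind catenins and through these the actin cytoskeleton. Protocadherins have a similar repeat-bearing ectodomain, largely encoded by a single long exon, with shorter or unrelated tails, and the clustered ones lie in tandem arrays of similar genes. Fat and Dchs proteins are giant cadherins that bind each other across cell borders, and Celsr proteins take part in planar cell polarity. In the heart, N-cadherin connects cardiomyocytes at the intercalated disc and cadherin-11 is known from fibroblasts and other mesenchymal cells.

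Together the 36 genes had 76 Vector peaks and 66 FTO peaks. The FTO list was shorter as a whole, and after scaling by the ratio of the list sizes, 1.19, the 66 peaks became 78.8 and the direction turned. Such scaling removes any change shared by the whole list, so a scaled number is not a corrected one. Why the FTO list was shorter was not tested. FTO peaks were fewer than Vector peaks in 12 of the 36 genes (33.3%), against 41.4% of all 8729 genes with a peak. The number was equal in 17 members (47.2%), against 37.4% of all genes, and higher in the FTO list in 7 members (19.4%), against 21.2%. These shares lay near those of all genes, so the members as a whole did not stand out by the direction of their peak number. This rested on the clustered protocadherins, and among the 15 other members 46.7% had fewer, 20% as many and 33.3% more FTO peaks. In 8 members (22.2%) peaks were listed in the Vector group alone, against 16.4% of all genes. In 1 member (2.78%), Pcdhgb8, the FTO list alone had a peak, against 9.57%. The median difference in peak number, FTO minus Vector, was 0 over the members and 0 over all genes, with a range over the members from -4 in Fat4 to 2 in Cdh3 and Cdh13.

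The deposited lists carry a length and a gene for each peak, and peaks were called common when a Vector and an FTO peak of the same gene had exactly the same length, paired 1 to 1. By this rule 48 peaks of the members were common to both lists. Of the 76 Vector peaks, 28 had no partner in the FTO list (36.8%, 95% Wilson interval 26.9 to 48.1), against 42.7% of all Vector peaks. Of the 66 FTO peaks, 18 had no partner in the Vector list (27.3%, interval 18 to 39), against 31.6% of all FTO peaks. Both intervals, which cover counting error only, held the value of the whole list. The complete set of lengths was identical in 14 members (38.9%), against 21% of all genes, and 12 of these 14 were clustered protocadherins. These 2 shares were not matched for peak number, and a set of 1 peak is more easily identical. Of 35 members with a Vector peak 24 had exactly 1, against 3341 of 7894 genes in the whole list.

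Length set the members apart more than number did. The median peak length was 1340 bp with Vector and 1377.5 bp with FTO, while all other peaks had medians of 203 and 227 bp. Peaks of at least 2000 bp made up 31 of 76 in the Vector list (40.8%, interval 30.4 to 52) and 28 of 66 in the FTO list (42.4%, interval 31.2 to 54.4). Among all other peaks the shares were 4.34% and 5.26%. The long peaks came mainly from the protocadherins: without the clustered genes the medians were 458 bp with Vector and 632 bp with FTO. The summed length of the members' peaks was 111016 bp with Vector and 98343 bp with FTO, with mean lengths of 1460.7 and 1490.0 bp.

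**Figure D1:**
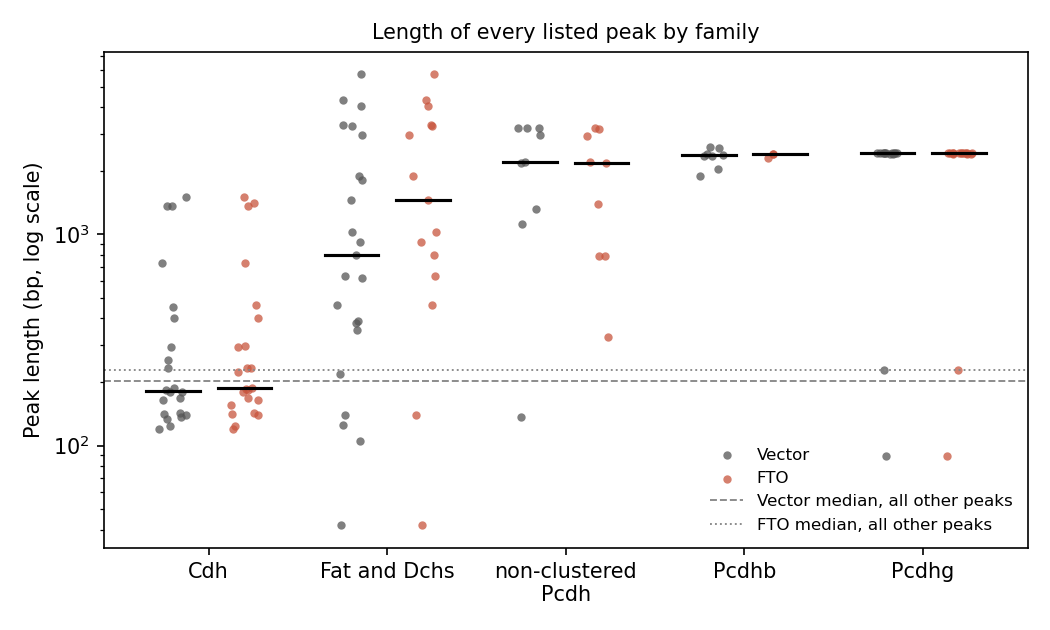
Length of every listed peak of the members in bp on a log scale, by family, with Vector peaks in grey, FTO peaks in red and black bars at the median. The Cdh peaks had medians of 181.5 and 188 bp, near the medians of all other peaks (dashed and dotted lines at 203 and 227 bp), and the Pcdhg peaks had a median of 2421 bp in both lists.

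The classical and atypical cadherins had short peaks. A peak was listed for 5 of the 23 Cdh genes, with 22 Vector and 23 FTO peaks, medians of 181.5 and 188 bp and none of 2000 bp or more. Of the 22 Vector peaks, 6 had no FTO partner (27.3%, interval 13.2 to 48.2), against 42.7% of all Vector peaks. Of the 16 common peaks 12 were under 300 bp. Within the family the number of FTO peaks was higher in 3 genes and lower in 2, against 21.2% higher and 41.4% lower among all genes. Scaling turned none of these 5 directions, but it made 60.1% of all genes higher, about the share of 3 in 5, so nothing particular to the family is read from the count.

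Cdh2 (GeneID 83501), which encodes N-cadherin, had 5 Vector peaks of 1501, 165, 140, 234 and 293 bp in the order of the list. Its FTO list held all 5 of these lengths in the same order and a further peak of 186 bp between the last 2. The Cdh2 sets thus differed by 1 short peak. Cdh3 (GeneID 116777), the gene of P-cadherin, had a Vector peak of 730 bp, which was also listed in the FTO group behind peaks of 463 and 156 bp. Both type I cadherins with a peak therefore had every Vector peak again in the FTO list and 1 or 2 peaks more. Cdh1, the gene of E-cadherin and an epithelial marker, had none in either list, nor had Cdh4 or Cdh15.

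Cdh11 (GeneID 84407) encodes cadherin-11, the type II cadherin of mesenchymal cells, and had more Vector peaks than any other member. Its 10 Vector peaks measured 180, 124, 400, 120, 168, 188, 254, 137, 134 and 1356 bp. Its 7 FTO peaks measured 124, 400, 295, 120, 168, 188 and 1356 bp. The longest peak and 5 shorter ones were common, 4 Vector peaks of 134 to 254 bp had no partner, and 1 FTO peak of 295 bp had none. The Vector list also held a peak of 453 bp in Cdh18 (GeneID 310174), a type II cadherin known mainly from the nervous system, which had no FTO peak. The type II family thus went from 11 Vector to 7 FTO peaks, or 8.36 after scaling. Among the 11 type II genes without a peak was Cdh5, the gene of VE-cadherin of endothelial cells.

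Cdh13 (GeneID 192248) encodes T-cadherin, which is held in the membrane by a lipid anchor and lacks a cytoplasmic tail. Its Vector peaks measured 179, 141, 183, 143 and 1356 bp. The FTO peaks measured 179, 141, 183, 143, 234, 222 and 1408 bp. The first 4 lengths were shared in the same order, the final long peak was 52 bp longer in the FTO list, and 2 further short peaks stood between. Cdh16, Cdh17, Cdh23 and Cdh26 had no peak in either list.

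Differences were seen again in the giant cadherins. The Fat genes had 19 Vector peaks and 11 FTO peaks, or 13.1 after scaling. Each of the 3 Fat genes with a peak had fewer in the FTO list, as 41.4% of all genes did. That share covers genes of any peak number, 3341 of them with 1 Vector peak, and was not matched to the Fat genes. The summed peak length of the Fat genes fell by 13.9%, from 28808 to 24813 bp, while their peak number fell by 42.1%. Over the whole lists summed length fell by 6.84% and peak number fell by 16.3%, so that here too the number fell by more than the length. The median length of the Fat peaks was 632 bp with Vector and 1450 bp with FTO.

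Fat4 (GeneID 310341), the receptor of Dchs1, had 8 Vector peaks of 5747, 351, 923, 4350, 105, 125, 218 and 2955 bp. The FTO list held 4 peaks of 5747, 923, 4350 and 2952 bp. Both very long peaks were common, the last long peak differed by 3 bp, and the 4 peaks without any near counterpart measured 105 to 351 bp. The 5747 bp peak of Fat4 ranked 20 by length among all Vector peaks and 19 among all FTO peaks. Fat1 (GeneID 83720), which acts on actin dynamics and cell migration, had 9 Vector peaks of 1450, 632, 463, 802, 390, 4068, 140, 3286 and 380 bp. Its 7 FTO peaks repeated all of these in the same order but the 390 and 380 bp peaks. Fat3 (GeneID 191571), best known from the nervous system, had Vector peaks of 623 and 1800 bp and no FTO peak. Fat2 had none in either list.

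Dchs1 (GeneID 308912), the ligand of Fat4, had identical sets in both groups. Its 4 peaks measured 3244, 1026, 1893 and 42 bp with Vector and with FTO. The receptor of the pair thus had 8 peaks in 1 group and 4 in the other, while the ligand had the same 4. Dchs2 had no peak, and neither had Celsr1, Celsr2 or Celsr3. Over the Fat and Dchs genes 9 of 23 Vector peaks had no FTO partner (39.1%, interval 22.2 to 59.2), close to the 42.7% of the whole list. In the opposite direction 1 of 15 FTO peaks had no Vector partner (6.67%, interval 1.19 to 29.8), the 2952 bp peak of Fat4, against 31.6% of all FTO peaks. Those 15 peaks came from 3 genes in 1 list, and no difference from the whole list is drawn from them.

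**Figure D2:**
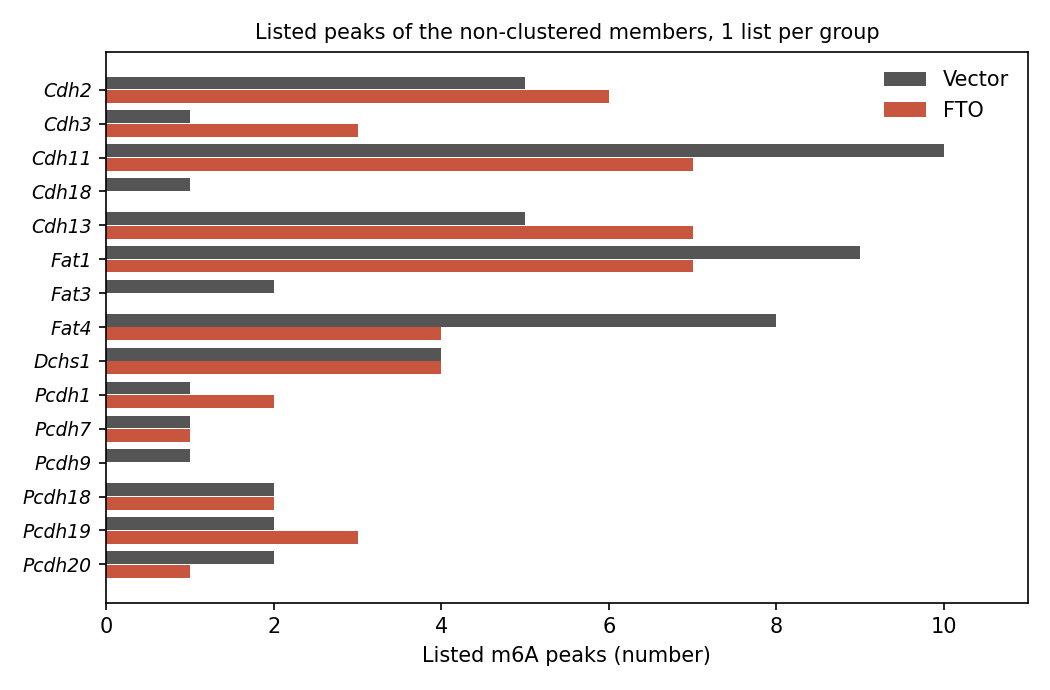
Number of listed m6A peaks of each of the 15 non-clustered members with a peak, Vector in grey and FTO in red, with 1 list per group and no error bars. Cdh11 (10 and 7), Fat1 (9 and 7) and Fat4 (8 and 4) had more Vector than FTO peaks, also after scaling by the list sizes, and Cdh2 (5 and 6), Cdh3 (1 and 3) and Cdh13 (5 and 7) had fewer, with or without scaling.

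Among the non-clustered protocadherins, 6 of 12 genes had a peak, with 9 peaks in each list and medians of 2196 and 2190 bp. Scaling took the 9 FTO peaks to 10.7. FTO peaks were fewer in 2 of these genes, as many in 2 and more in 2, against 41.4%, 37.4% and 21.2% of all genes. Of 9 Vector peaks 6 had no FTO partner of exactly the same length (66.7%, interval 35.4 to 87.9), against 42.7% of all Vector peaks. Several of these long peaks, however, had a counterpart of nearly the same length.

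Among the delta-1 protocadherins, Pcdh7 (GeneID 360942) had a peak of 3182 bp in both lists. Pcdh1 (GeneID 307481), a protocadherin known from epithelia, had a 2196 bp peak in both and a 793 bp peak in the FTO list alone. Pcdh9 (GeneID 306091), expressed chiefly in the nervous system, had a Vector peak of 3183 bp and no FTO peak. The 3 delta-1 genes thus covered the 3 possible directions. Pcdh11x had no peak.

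Delta-2 protocadherins bind the WAVE complex, a regulator of actin assembly, through a motif in their tails. Pcdh18 (GeneID 295027) had Vector peaks of 1114 and 2970 bp and FTO peaks of 790 and 2917 bp. Pcdh19 (GeneID 317183), an X-linked gene mutated in an epilepsy of girls, had Vector peaks of 1324 and 2190 bp and FTO peaks of 1399, 328 and 2190 bp. In both genes the long peak remained within 53 bp, and the other peak differed in length between the groups. Pcdh8, Pcdh10 and Pcdh17 of the same family had no peak in either list.

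Of the non-clustered protocadherins outside the delta families, Pcdh20 (GeneID 306081) had Vector peaks of 3177 and 137 bp and a single FTO peak of 3163 bp. Pcdh12 and Pcdh15 had none.

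The clustered protocadherins supplied 21 of the 36 members with a peak, of 39 such genes in the table, with 22 Vector and 19 FTO peaks, the latter 22.7 after scaling. They act as cell-surface identity tags in neurons, and in the gamma cluster the long variable exon of each gene encodes its ectodomain and is joined to constant exons that the cluster shares. Genes of these arrays are paralogs, and the assignment of a peak to 1 of them is given as uncertain, since how reads that match several genes were placed was not analysed here. By length the family was uniform, with medians of 2419.5 and 2421 bp, and 19 of 22 Vector peaks and 17 of 19 FTO peaks were at least 2000 bp long.

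The beta and gamma clusters are given in turn. Of the 22 Pcdhb genes 8 had a peak, each with 1 Vector peak, and the FTO list held 3 peaks, 3.58 after scaling. Pcdhb3 (2555 bp), Pcdhb14 (2361 bp), Pcdhb19 (2353 bp), Pcdhb20 (2587 bp) and Pcdhb21 (1891 bp) had a peak with Vector and no peak with FTO. Pcdhb2 had the same 2397 bp in both. In Pcdhb17 the Vector peak measured 2030 bp and the FTO peak 2400 bp, and in Pcdhb22 the lengths were 2388 and 2313 bp. By exact length 7 of 8 Vector peaks of the beta genes were unpaired, against 42.7% of all Vector peaks. Those of Pcdhb17 and Pcdhb22 had an FTO peak of another length. Thus 5 of 8 genes had no FTO peak, against 31.5% of all genes with 1 Vector peak. The beta genes are few and related, with 1 list per group, and no difference from the whole list is drawn from them.

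In the gamma cluster 13 of 16 genes had a peak and all 14 Vector peaks had an FTO partner of the same length. The share without a partner was thus 0 of 14, with an interval up to 21.5%, against 42.7% of all Vector peaks. The gamma genes too are related, with 1 list per group, and no difference from the whole list is drawn from them. Pcdhga1, Pcdhga2, Pcdhga9 and Pcdhgb7 each had a peak of 2421 bp in both lists. Pcdhga3 and Pcdhga10 had 2415 bp, Pcdhga4 2418 bp, Pcdhga5 and Pcdhga8 2424 bp, Pcdhga11 2427 bp and Pcdhga7 2430 bp, again in both. Lengths were so alike within the cluster that the 12 long Vector peaks had 7 distinct lengths between 2415 and 2436 bp. The FTO list had 2 more: a 2415 bp peak in Pcdhgb8, which had no Vector peak, and a 2424 bp peak in Pcdhgc3. Pcdhgc3 otherwise had peaks of 2436, 89 and 227 bp in both lists, the 2436 bp peak on 1 transcript and the others, with the 2424 bp peak, on a second one, and among the clustered genes it alone had more than 1 peak in a list.

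All 12 long Vector peaks and all 14 long FTO peaks of the gamma genes had a length divisible by 3, equal to 805 to 812 codons. Over all members the share divisible by 3 was 40 of 76 Vector peaks (52.6%, interval 41.6 to 63.5) and 36 of 66 FTO peaks (54.5%, interval 42.6 to 66). It was 38% of all other peaks in both lists. Without the clustered genes it was 46.3% of the Vector peaks (interval 33.7 to 59.4) and 40.4% of the FTO peaks (interval 27.6 to 54.7). The excess over the other peaks thus lay mostly in the clustered genes. In the Vector list it was 12 of 14 gamma peaks (85.7%) but 3 of 8 beta peaks (37.5%). In the FTO list it was 14 of 16 gamma peaks and 3 of 3 beta peaks. Where these peaks begin and end on the transcripts was not analysed here.

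**Figure D3:**
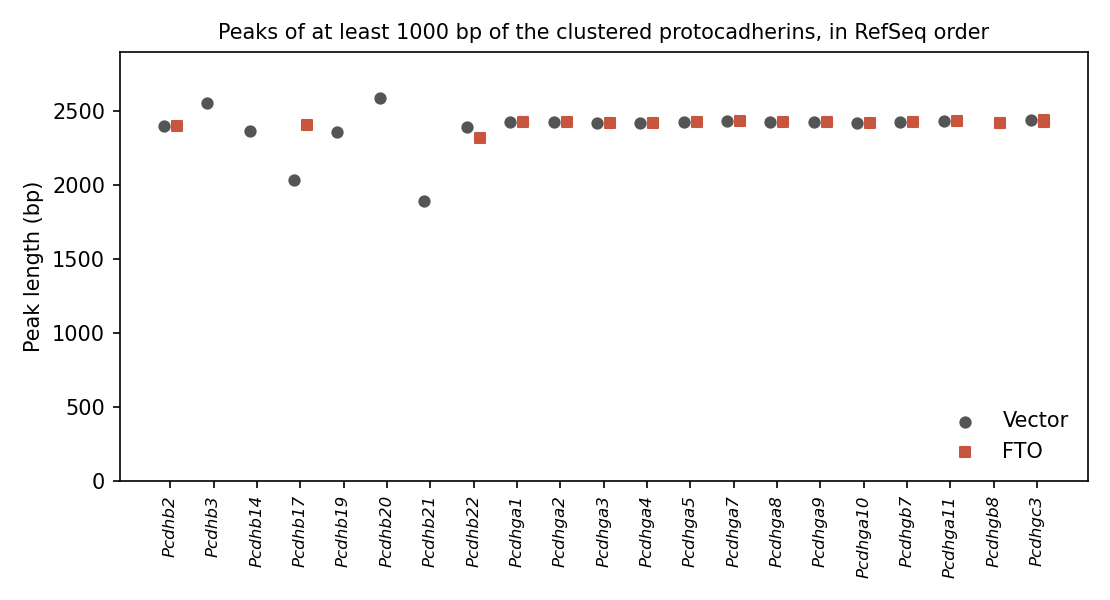
Length in bp of each peak of at least 1000 bp in the clustered protocadherins, in the order of the genes in the RefSeq table, with Vector peaks as grey circles and FTO peaks as red squares. Among the Pcdhb genes 5 of 8 have a Vector peak alone, and the 12 long Vector peaks of the Pcdhg genes each have an FTO peak of the same length.

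The peak names are numbered, and in both lists the clustered genes followed their RefSeq order, from number 25594 to 25649 with Vector and from 22487 to 22533 with FTO. Within these ranges the Vector list held 29 peaks and the FTO list 27, of which 22 and 19 belonged to members. Peaks with a gene ID outside the RefSeq table numbered 4 and 5, peaks without an ID 1 and 1, and 2 in each list belonged to the neighbouring genes Slc25a2 and Taf7. The 5 Vector and 6 FTO peaks without a symbol measured 1732 to 2397 bp and 1729 to 2415 bp, so the cluster held further long peaks that could not be named. Of their 6 transcripts, 5 had a peak in both lists and 1 in the FTO list alone. The 18 clustered genes without a peak included Pcdha4, the alpha gene of the table, as well as Pcdhga12 and Pcdhgc5.

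Members with exactly 1 Vector peak numbered 24, and 7 of these had no FTO peak (29.2%), against 31.5% of all genes with 1 Vector peak. Among the clustered genes it was 5 of 19 (26.3%), with 5 of 8 beta and 0 of 11 gamma genes. Of the 31 Vector peaks of at least 2000 bp, 10 had no FTO partner (32.3%), against 47.3% of all Vector peaks of that length. The clustered genes gave 6 of 19 (31.6%), a value that pools 6 of 7 long peaks in the beta genes with 0 of 12 in the gamma genes.

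Of 7 members with at least 3 Vector peaks, 6 had their longest Vector peak in the FTO list at the same length (85.7%, interval 48.7 to 97.4), against 63.5% of 2815 such genes in the series. The exception was Cdh13. The remaining Vector peaks of these 7 genes were paired in 26 of 37 cases (70.3%), against 61.6% in the series, so that over all genes the longest peak and the other peaks were paired about equally often. In all 7 members with 2 or more pairs the common peaks stood in the same order in both lists, as they did in 99.3% of 2597 such genes.

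Because the numbers follow this order, it could be counted how many numbers lie between the same common peaks in each list. Both lists skip numbers, and the listed peaks equal 35.7% of the highest number with Vector and 34.2% with FTO. Between the 5747 and 923 bp peaks of Fat4 there were 4 numbers in each list, of which the Vector list used 1 for its 351 bp peak and the FTO list none. Between the 802 and 4068 bp peaks of Fat1 there was 1 number in each list, used in the Vector list for the 390 bp peak and not listed in the FTO group. Between the 188 and 1356 bp peaks of Cdh11 the Vector list had 4 numbers, of which 3 were listed (254, 137 and 134 bp), and the FTO list had 3 unlisted numbers. The same was seen in the other direction. Between the 234 and 293 bp peaks of Cdh2 both lists had 3 numbers, of which the FTO list used 1 for its 186 bp peak and the Vector list none. Between the 400 and 120 bp peaks of Cdh11 the FTO list held its 295 bp peak and the Vector list had 1 unlisted number.

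All 5 of these intervals with a peak in 1 list had an unlisted number in the other. Where neither list had a peak between the pair, 2 of 20 intervals of the members (10%) had an unlisted FTO number and 6 of 20 (30%) an unlisted Vector number. In all genes 75.8% of 817 intervals with a Vector peak and no FTO peak had an unlisted FTO number, against 17.6% of 4749 intervals with no listed peak. Intervals of the former kind were also richer in unlisted Vector numbers, at 52.4% against 22.6%. What the unlisted numbers stand for was not tested, so that a peak absent from a list cannot be read as RNA without m6A at that place. By the full span from first to last peak, Fat4 covered 12 Vector numbers with 8 listed and 13 FTO numbers with 4 listed. Cdh13, with more listed peaks in the FTO group, covered 14 Vector numbers with 5 listed and 9 FTO numbers with 7 listed. Other members differed from this. Cdh11 covered 17 Vector numbers with 10 listed and 10 FTO numbers with 7 listed. Fat1 covered 10 Vector numbers with 9 listed and 8 FTO numbers with 7 listed. In these 2 genes the list with fewer peaks did not have more unlisted numbers.

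The junction partners of the cadherins were counted in the same way. Of 10 catenin genes, which link cadherin tails to actin, 6 had a peak, with 4 lower and 2 higher in the FTO list. They had 19 Vector and 16 FTO peaks, the latter 19.1 after scaling, so that this direction turned. Ctnnd1, the gene of p120-catenin, had 5 and 3 peaks, its relative Pkp4 8 and 6, and Arvcf 0 and 2. Ctnnb1, which encodes beta-catenin, had no peak in either list, and Ctnna1 of alpha-catenin had 5 and 4. Among 11 actin linkers 9 had a peak, 3 in each direction and 3 equal, with 50 and 43 peaks or 51.3 after scaling, which turned the direction. Actn1, an alpha-actinin that crosslinks actin filaments, went furthest, with 7 Vector and 2 FTO peaks.

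Nectins are immunoglobulin-like adhesion molecules of the same junctions, and 3 of 4 had peaks, 2 lower and 1 higher in the FTO list. Nectin1 had 1 and 3 peaks and Nectin2 had 6 and 4, while the list had 8 and 7, or 8.36 after scaling, which turned its direction. Of 7 desmosomal cadherins, Dsc2 and Dsg2 each had 0 Vector peaks and 1 FTO peak. The proteases and turnover factors of cadherins all had peaks, 8 of 8, with 2 lower, 3 equal and 3 higher. Pcsk6, a proprotein convertase, had 11 Vector and 3 FTO peaks, and the list had 28 and 23, or 27.5 after scaling.

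Genes that work with the giant cadherins were counted in 2 lists. Of 11 core planar cell polarity genes 10 had a peak, with 5 lower, 5 equal and 0 higher, and 28 and 21 peaks, or 25.1 after scaling. Prickle2 had 5 and 3 and Dvl3 had 4 and 2, whereas Vangl1 had 7 in both. In the list of the Fat and Dchs pathway 4 of 6 had a peak, 3 lower and 1 equal, with 9 and 3 peaks, or 3.58 after scaling. Pals1, a polarity scaffold, had 6 and 2 peaks, and Fjx1, the relative of a kinase that phosphorylates Fat and Dchs repeats in flies, had 1 in both. Effectors of protocadherins had 19 peaks in each list in 8 of 11 genes, with 2 lower, 4 equal and 2 higher. Ptk2 had 8 and 7 peaks, Ptk2b 4 and 3, Taok2 2 and 3 and Wasf1 0 and 1. Over all 68 partners 50 had a peak, with 21 lower (42%), 16 equal (32%) and 13 higher (26%) in the FTO list. These shares lay near the 41.4%, 37.4% and 21.2% of all genes, and with equal numbers turned into higher ones by scaling, nothing particular to the partners is read from their counts.

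Peaks of cell type markers were counted because several cadherins are expressed in more than 1 cell type of the heart. Of 13 fibroblast markers 8 had a peak, with 22 in each list and most in Fbln2 (7 and 8) and Pdgfra (7 and 6). Tcf21 had 1 in both, and Col1a1, Col1a2, Col3a1, Dcn and Vim had none. Of 11 cardiomyocyte markers 7 had a peak, with 24 and 25, among them Myh6 (7 and 7), Myh7 (8 and 5) and Tnnt2 (4 and 7), while Ttn and Nppa had none. Transcripts of muscle genes were thus present beside those of Cdh2. The paper states that the heart cells were purified by differential adhesion, and how many cardiomyocytes remained was not tested. Smooth muscle and pericyte markers had 23 and 24 peaks in 5 of 9 genes, led by Myh11 (17 and 15), with none in Acta2 or Tagln. Macrophage and leukocyte markers had 15 and 9 peaks in 5 of 8 genes, led by Ptprc (10 and 7), with none in Adgre1. Endothelial markers had 8 and 6 peaks in 3 of 10 genes, led by Flt1 (7 and 4), with none in Pecam1, Kdr or Cdh5. Schwann and neural markers had 9 and 6 peaks in 2 of 6 genes, led by Ncam1 (6 and 5), with none in Sox10. Of 9 epicardial and epithelial markers Tbx18 had 2 peaks in both lists and the others, Cdh1 and Wt1 among them, none. After scaling, the FTO peaks became 26.3 for fibroblast, 29.9 for cardiomyocyte, 28.7 for smooth muscle and 2.39 for epicardial markers, all above Vector. They became 10.7 for macrophage, 7.16 for endothelial and 7.16 for Schwann markers, below Vector. FTO peaks were fewer in 3 of 8 fibroblast, 3 of 7 cardiomyocyte, 2 of 5 smooth muscle and 4 of 5 macrophage markers. It was 2 of 3 endothelial, 2 of 2 Schwann and 0 of 1 epicardial markers, against 41.4% of all genes. The part of these cells in the peaks of the cadherins was not tested. A number of peaks is neither an amount of RNA nor a number of cells. Whether cell number, RNA per cell, methylation or peak calling differed between the groups was not tested, and in bulk RNA these cannot be told apart.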

How the data were processed

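m6A-seq libraries of NRCFs were titled Control and Treat, which were read as the Vector and FTO groups of the paper. According to the submitters' processing notes, cutadapt 1.9.3 and HISAT2 2.0.4 were used with the rn6 genome. The authors deposited 1 list per group that names each peak, its length in bp (not normalized), its gene by NCBI ID and its Ensembl transcript, and the peak names carry the prefix of MACS. The peak threshold was not given in the sources used here. Symbols came from the RefSeq table of GRCr8, in which 7489 of 7723 Vector gene IDs and 6920 of 7145 FTO gene IDs matched. It was used for names and gene order alone. Peaks were counted per gene and paired 1 to 1 by gene and equal length, and the pairing was tested on simulated lists. Shares have 95% Wilson intervals, which treat the peaks of 1 gene as independent and cover counting error only. Members, families, partner and marker lists were chosen with earlier results of these data known. Every member with a peak was named, and in each partner list the genes with the greatest difference in peak number; Ctnna1, Ctnnb1, Vangl1 and Fjx1 were named after their values were seen. Protein lengths and sequences were not used here. Python 3.11.15, pandas 2.3.3, scipy 1.17.1 and matplotlib 3.10.9 were used.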

Additional observations from a re-analysis of the deposited data

How the results depend on the processing

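Of 58 values recomputed under other settings, 47 stayed within the interval or within 1.5 times of the reported value and 11 did not. With FTO numbers scaled by the ratio of the list sizes, 0 members had as many FTO peaks and 24 of 36 had more (66.7%, against 60.1% of all genes), since equal numbers become higher by construction. Without the clustered protocadherins 7 of 15 members had fewer (46.7%, against 41.4% of all genes), 3 as many (20%, against 37.4%) and 5 more FTO peaks (33.3%, against 21.2%). The median lengths without them, 458 and 632 bp, were well below 1340 and 1377.5 bp, and count among the 47 because the 95% intervals of those medians were wide, at 453 to 2196 bp for Vector and 463 to 2397 bp for FTO. With any peak of the same gene as partner, 25% of the members' Vector peaks and 13.6% of their FTO peaks had none. The shares of the whole lists under this rule are not given here, so no comparison with them is made. The median over members of the longest peak was 2421 bp in the Vector list and 2421 bp in the FTO list. With peaks of at least 1000 bp alone, a setting chosen after seeing the data, 41 Vector and 35 FTO peaks were left with 2 of 34 members having more FTO peaks (5.88%, against 14.8% of all genes with such a peak) and 8 fewer (23.5%, against 16.2%), so that the members lay above all genes in the share with fewer, where all peaks had put them below. Counting the peaks of the cluster without a symbol as members, also chosen after seeing the data, gave 81 Vector and 72 FTO peaks. A limit of 100 bp stayed within those bounds for all of these values. A limit of 200 bp and equal lengths counted once did so for the numbers and shares, and were not run for the median lengths. Lengths within 10% and the same transcript were run for the shares without a partner alone, and stayed within their intervals. Scaling was not run for shares of unpaired peaks, which hold no count to scale. No paired analysis was possible because a group consisted of 1 list. The unknown depth of the libraries limits every number of listed peaks, and no correction for it was made.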
